A study of Homo sapiens with 9 samples.

Results

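The chemokines read here in hepatoma cells were CXCL1, CXCL2, CXCL3, CXCL5, CXCL6, CXCL8, CXCL16, CCL2 and CCL20. Every probe set whose platform annotation gave exactly 1 gene symbol, and that symbol one of these names, was taken, which gave 14 probe sets of 54613 tested and 9 genes of 19775. The 9 genes were chosen on these same signals, with their differences between PGG and PBS known, so their values are a description and carry no p. The cells were Huh7, an established human hepatocellular carcinoma line, seeded for 24 h before the treatments began. PGG is pentagalloylglucose, a plant gallotannin, and it was given at 0.1 mg/mL, dissolved in phosphate-buffered saline (PBS). The 9 Affymetrix arrays form 3 groups of 3, PBS alone for 48 h, PGG for 6 h and PGG for 48 h. The titles of the PBS arrays give 48 h, which is used here, whereas their descriptions give 0 h of treatment. No PBS array of 6 h was analysed, so time in culture and PGG cannot be told apart in the comparison at 6 h. All cells belonged to 1 line, so the arrays say nothing of other hepatoma cells or of normal liver.

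Chemokines are small secreted proteins that direct the movement of leukocytes through G protein-coupled receptors. CXCL1, CXCL2, CXCL3, CXCL5, CXCL6 and CXCL8 (interleukin-8) carry a glutamate-leucine-arginine motif ahead of their first cysteines, bind the receptor CXCR2, and attract neutrophils and promote vessel growth. Their genes lie side by side on chromosome 4 and are classical targets of NF-kB, and hepatocytes and hepatoma cells make several of them when cytokines are present. CXCL16 is made as a membrane protein that is shed from the cell and binds CXCR6, CCL2 attracts monocytes through CCR2, and CCL20 attracts lymphocytes and dendritic cells through CCR6.

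The arrays had been normalized by RMA, and 1 log2 signal per probe set was deposited. The median signal of an array lay between 5.16 and 5.2. The gap between the 3′ and the 5′ control signal of ACTB, which widens as RNA breaks down, was 0.96 to 1.57 on the log2 scale over the 6 arrays of PBS and PGG at 6 h, but 2.14, 4.03 and 2.67 in replicates 1, 2 and 3 of PGG at 48 h. The same gap for GAPDH was 1.83 in replicate 2 of PGG at 48 h and 0.13 to 0.39 on the other 8 arrays. This array therefore stood apart, and the chemokine values at 48 h are also given without it. All 3 arrays of PGG at 48 h had the wider ACTB gap, and its part in the differences at 48 h was not tested. Hepatoma markers were present, with no mean under 5 among 9 measured of 10 listed, and the log2 of their summed signal was 15.70 to 15.73 in PBS, 15.86 to 15.90 at 6 h and 15.65 to 15.69 at 48 h. Of 12 measured leukocyte markers of 14 listed, 7 had means under 5, among them the pan-leukocyte gene PTPRC at 3.30, 3.38 and 3.34 in PBS, PGG at 6 h and PGG at 48 h. The brightest of the 12 was LYZ, with means of 12.14, 12.13 and 11.96 in PBS, PGG at 6 h and PGG at 48 h. The summed leukocyte signal was 12.27 to 12.34 in PBS, 12.23 to 12.45 at 6 h and 11.91 to 12.16 at 48 h. That sum lay close to LYZ alone, so it mostly follows LYZ and is not read as a measure of leukocytes. Endothelial markers, 6 measured of 6, summed to 7.58 to 7.65, 7.53 to 7.63 and 7.68 to 7.92, and stromal markers, 8 measured of 8, to 8.59 to 8.61, 8.49 to 8.57 and 8.70 to 8.79.

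The 6 genes on chromosome 4 lay within 358.6 kb (chr4:73740569-74099195, GRCh38.p14), in the order CXCL8, CXCL6, CXCL1, CXCL5, CXCL3 and CXCL2. CXCL8, CXCL6 and CXCL1 are on the plus strand, and CXCL5, CXCL3 and CXCL2 are on the minus strand. CXCL16 (chr17:4733533-4739928) and CCL2 (chr17:34255285-34257203) lie on chromosome 17 and CCL20 (chr2:227813842-227817556) on chromosome 2. RefSeq promoters from 250 bases before to 50 bases after the annotated start were held for 7 of the 9 genes, namely the 6 on chromosome 4 and CCL20. They were searched on both strands for the letters GGAATTTCC, a form of the NF-kB site, which stood in 6 of the 7, once in each gene of the chromosome 4 cluster, and in 129 of 27305 promoters of the same length (0.472%). The first letter of the match lay 78 bases before the start in CXCL1, 77 in CXCL2, 78 in CXCL3, 90 in CXCL5, 89 in CXCL6 and 91 in CXCL8, and each match was on the strand of the gene. The match shows letters and not a bound site. Other forms of the NF-kB site were not searched for, so CCL20 is not shown to lack one. No enrichment is read from the share of all promoters, since only this form was searched and several of the 6 promoters are alike. The 120 bases before each start are printed because the 6 cluster genes share these letters while their signals moved in different ways. They read 5′ to 3′ along the gene, and capitals mark GGAATTTCC and the TATA box letters TATAAA.
CXCL8, chr4:73740449-73740568, plus strand: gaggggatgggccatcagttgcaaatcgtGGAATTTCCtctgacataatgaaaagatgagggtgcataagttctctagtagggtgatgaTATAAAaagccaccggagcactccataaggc
CXCL6, chr4:73836558-73836677, plus strand: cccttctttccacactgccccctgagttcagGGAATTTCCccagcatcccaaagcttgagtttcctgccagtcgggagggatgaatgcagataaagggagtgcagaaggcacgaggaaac
CXCL5, chr4:73998678-73998797, minus strand: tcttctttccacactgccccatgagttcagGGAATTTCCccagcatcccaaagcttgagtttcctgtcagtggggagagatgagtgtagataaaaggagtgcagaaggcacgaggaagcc
CXCL1, chr4:73869273-73869392, plus strand: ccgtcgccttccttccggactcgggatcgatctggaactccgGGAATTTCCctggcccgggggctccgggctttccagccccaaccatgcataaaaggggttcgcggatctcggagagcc
CXCL3, chr4:74038690-74038809, minus strand: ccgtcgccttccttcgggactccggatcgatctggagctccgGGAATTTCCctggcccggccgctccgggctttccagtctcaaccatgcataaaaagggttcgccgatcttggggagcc
CXCL2, chr4:74099196-74099315, minus strand: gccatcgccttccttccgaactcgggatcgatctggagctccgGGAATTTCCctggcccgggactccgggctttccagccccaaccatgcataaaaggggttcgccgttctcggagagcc
CCL20, chr2:227813722-227813841, plus strand: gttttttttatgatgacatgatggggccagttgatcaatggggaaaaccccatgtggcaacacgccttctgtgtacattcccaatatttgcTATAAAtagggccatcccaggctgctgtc
The TATAAA letters lay 31 bases before the start of CXCL8 and 29 before that of CCL20, and stood in 12.0% of all promoters. The AP-1 letters TGANTCA, in which N is any base, were found in CXCL8 alone of the 7, 137 bases before the start, and in 7.76% of all promoters. The E-box letters CACGTG were in 0 of the 7 and in 7.43% of all. None of these motifs contains another. The promoters fell into pairs and groups of like sequence. CXCL5 and CXCL6 were identical in 83.1% of alignment columns, gaps included, CXCL1 and CXCL3 at 82.5%, CXCL2 and CXCL3 at 73.7% and CXCL1 and CXCL2 at 69.7%. Promoters of CXCL5 and CXCL6 matched those of CXCL1, CXCL2 and CXCL3 at 48.4% to 52.3%. CXCL8 matched the other 5 cluster promoters at 40.9% to 44.7%. The promoter of CCL20, on another chromosome, matched the cluster promoters at 40.1% to 47.4%, so the values of CXCL8 lay within that range.

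**Figure D1:**
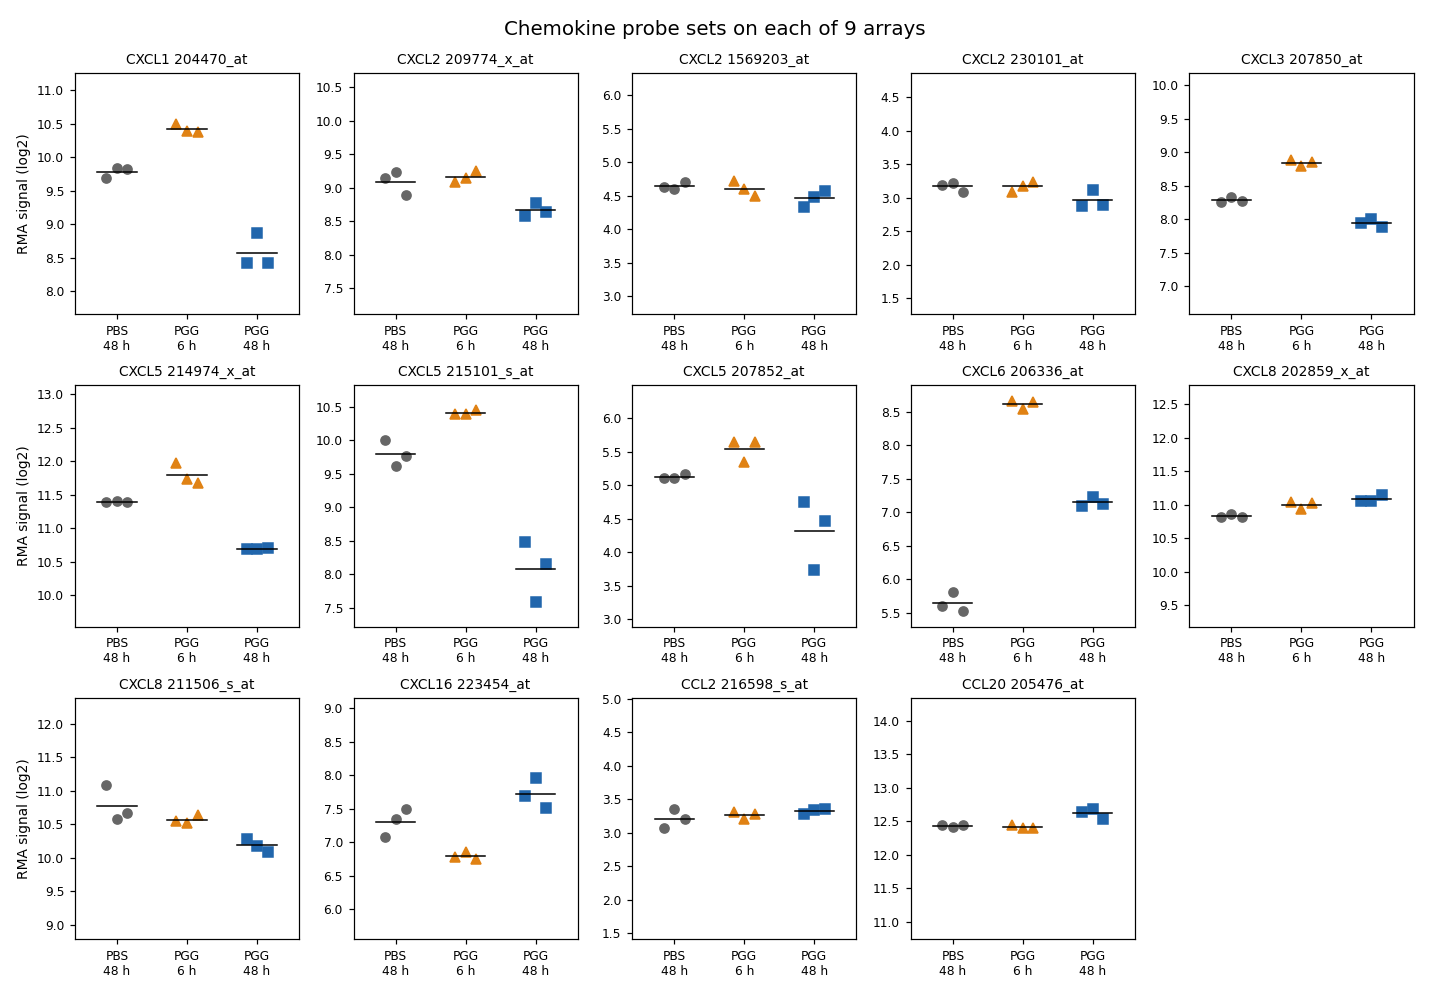
RMA signal on the log2 scale (vertical axis) of the 14 chemokine probe sets on each of 9 arrays. Circles are PBS at 48 h, triangles PGG at 6 h and squares PGG at 48 h, horizontal bars are means of 3 arrays, and each panel spans the same log2 distance around its own centre. CXCL6 stood above PBS at both times (5.64 in PBS, 8.61 at 6 h and 7.14 at 48 h), whereas CXCL1, CXCL3 and the CXCL5 probe sets stood above PBS at 6 h and below it at 48 h.

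Several of the neutrophil-attracting chemokines were higher after 6 h of PGG and lower than PBS after 48 h, whereas CXCL6 was higher at both times. In RNA of whole cultures, fewer cells with a transcript and less of it per cell cannot be told apart. Against PBS, limma called 5 of the 14 probe sets higher and 1 lower at 6 h at an adjusted p under 0.05 over all probe sets, beside 24.6% of all probe sets called (12.2% higher and 12.5% lower). At 48 h 4 were higher and 7 lower, beside 39.0% of all (18.8% higher and 20.2% lower). Between the PGG times 2 were higher and 8 lower at 48 h than at 6 h, beside 36.4% of all (18.0% higher and 18.4% lower). Counted by arrays that did not overlap, 7 probe sets were above and 1 below PBS at 6 h (37.5% of all probe sets did not overlap, 18.8% above and 18.7% below), and 4 were above and 8 below at 48 h (44.5% of all, 20.9% and 23.6%). Between the PGG times 3 were above and 8 below (44.8% of all, 21.4% and 23.4%). These shares describe genes picked with results in view, and nothing is read from them. The median log2 difference over the 14 probe sets was 0.12 at 6 h and -0.28 at 48 h, and that over all probe sets was 0.0033 and -0.02. For the chemokines, the words rose and fell below stand for a limma call in this fit over all probe sets. For every other gene they stand for a call at an adjusted p under 0.05 in a second fit, of 1 probe set per gene over 19775 genes. Under the methods' t-test 4 chemokine probe sets were called at 6 h, all higher, 6 at 48 h (2 higher and 4 lower) and 9 between the PGG times (2 higher and 7 lower), and the calls lost are named with each gene.

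CXCL6 moved furthest at 6 h. Its probe set 206336_at read 5.60, 5.80 and 5.52 in PBS replicates 1, 2 and 3, 8.66, 8.54 and 8.64 after 6 h of PGG, and 7.09, 7.22 and 7.12 after 48 h. The 3 groups did not overlap, and the arrays at 48 h lay between the other groups. Group means were 5.64 ± 0.14 (SD, n = 3), 8.61 ± 0.06 (SD, n = 3) and 7.14 ± 0.07 (SD, n = 3). The log2 difference from PBS was 2.97 (SE 0.08, 95% interval 2.79 to 3.16) at 6 h and 1.5 (SE 0.08, interval 1.32 to 1.69) at 48 h, which are ratios of 7.85 and 2.84. From 6 to 48 h the signal fell by 1.47 (interval -1.65 to -1.29). Without replicate 2 of PGG at 48 h the difference at 48 h was 1.47. The study's cut-off for probe sets is an adjusted p under 0.005 and a mean difference beyond 1.5, read here on the log2 scale. CXCL6 was the 1 chemokine probe set past it at 6 h, higher than PBS, beside 0.734% of all probe sets (0.298% higher and 0.436% lower). At 48 h CXCL6 was past it as higher and CXCL5 215101_s_at as lower, beside 4.12% of all (2.26% higher and 1.86% lower). Between the PGG times CXCL1 and CXCL5 215101_s_at were past it, both lower at 48 h, beside 3.03% of all (1.75% higher and 1.28% lower). Without replicate 2 of PGG at 48 h neither CXCL6 (1.47) nor CXCL5 215101_s_at (-1.48) was past the cut-off at 48 h, and CXCL6 also missed it without PBS replicate 1 (1.48) or 3 (1.44). From 6 to 48 h CXCL6 came past it, as lower, without replicate 2 of PGG at 6 h or without replicate 2 at 48 h (-1.51 each).

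CXCL1, also known as GRO-alpha, crossed its PBS level between the times. Its probe set 204470_at read 9.69, 9.84 and 9.82 in PBS, 10.49, 10.39 and 10.37 at 6 h, and 8.42, 8.86 and 8.42 at 48 h. Every array at 6 h was above every PBS array, and every array at 48 h was below. CXCL1 rose by 0.63 on the log2 scale at 6 h (SE 0.11, interval 0.39 to 0.88) and fell by 1.22 at 48 h (SE 0.11, interval -1.46 to -0.97), a ratio of 1.55 above and then 2.32 below PBS. Replicate 2 at 48 h, the array with the widest 3′ to 5′ gaps, held the highest of the 3 values, and without it the difference at 48 h was -1.36.

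CXCL3, the close relative GRO-gamma, went the same way with smaller differences. Probe set 207850_at read 8.26, 8.34 and 8.28 in PBS, 8.88, 8.80 and 8.86 at 6 h, and 7.94, 8.0 and 7.89 at 48 h. The groups did not overlap. It rose by 0.55 at 6 h (SE 0.06, interval 0.42 to 0.69) and fell by 0.35 at 48 h (SE 0.06, interval -0.49 to -0.21). Without replicate 2 of PGG at 48 h the latter was -0.38.

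CXCL5, a neutrophil attractant of epithelial cells whose gene is the nearest relative of CXCL6 in promoter sequence, was read by 3 probe sets, all with the order 6 h, PBS, 48 h. The brightest, 214974_x_at, read 11.39, 11.41 and 11.39 in PBS, 11.98, 11.74 and 11.68 at 6 h, and 10.70, 10.69 and 10.71 at 48 h. It rose by 0.40 (SE 0.08, interval 0.23 to 0.58), a call lost under the methods' t-test, and fell by 0.70 (SE 0.08, interval -0.87 to -0.52, or by 0.69 without replicate 2 of PGG at 48 h), with no overlap of arrays. Probe set 215101_s_at read 10.01, 9.62 and 9.77 in PBS, 10.40, 10.39 and 10.45 at 6 h, and 8.49, 7.59 and 8.15 at 48 h. It rose by 0.61 at 6 h (SE 0.19), a call lost in 5 of the 9 fits that left out 1 array, and fell by 1.72 at 48 h (SE 0.19). Its lowest array was replicate 2 of PGG at 48 h, without which the difference was -1.48. Probe set 207852_at read 5.11, 5.11 and 5.17 in PBS, 5.65, 5.34 and 5.65 at 6 h, and 4.75, 3.73 and 4.46 at 48 h. Its arrays did not overlap either, but the difference of 0.42 at 6 h was not called (interval -0.04 to 0.87), except without replicate 2 of PGG at 48 h. It fell by 0.82 at 48 h (SE 0.21), or by 0.53 without that replicate. The methods' t-test called neither this fall nor the difference between the PGG times. The 3 probe sets thus gave 1 direction at each time, with sizes at 48 h of -0.70, -1.72 and -0.82.

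CXCL2, or GRO-beta, gave no call at 6 h and was lower at 48 h. Probe set 209774_x_at read 9.15, 9.23 and 8.89 in PBS, 9.09, 9.15 and 9.24 at 6 h, and 8.58, 8.77 and 8.64 at 48 h. PBS and 6 h overlapped, with a log2 difference of 0.07 (interval -0.14 to 0.28), and all arrays at 48 h were below all others. It fell by 0.43 at 48 h (SE 0.09, interval -0.64 to -0.22), and by 0.48 without replicate 2. The methods' t-test did not call it. The other CXCL2 probe sets were dim. 1569203_at read 4.34 to 4.73 and 230101_at 2.88 to 3.24 over the 9 arrays, and their log2 differences at 48 h were -0.18 (interval -0.36 to 0.0046) and -0.20 (interval -0.38 to -0.02), neither called. Without replicate 2 of PGG at 48 h the latter was called, at -0.28, and the former was -0.19. CXCL1, CXCL2 and CXCL3 are close copies of each other, and an Affymetrix name ending in _x_at marks a probe set with probes that can match other transcripts. How far the 3 share signal is uncertain. The brightest CXCL5 probe set, 214974_x_at, and the CXCL8 probe set 202859_x_at end in _x_at as well, so their probes can also match other transcripts.

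For CXCL8 the probe sets disagreed. 202859_x_at read 10.81, 10.86 and 10.81 in PBS, 11.04, 10.93 and 11.03 at 6 h, and 11.05, 11.05 and 11.15 at 48 h. All treated arrays were above PBS. Its difference of 0.17 at 6 h (SE 0.06, interval 0.03 to 0.31) was not called over all probe sets, but was called higher in the fit of 1 probe set per gene, with a mean-variance trend and without probe sets of means under 5. At 48 h it rose by 0.26 (SE 0.06, interval 0.12 to 0.40), or by 0.27 without replicate 2. Probe set 211506_s_at read 11.08, 10.58 and 10.67 in PBS, 10.54, 10.52 and 10.64 at 6 h, and 10.28, 10.18 and 10.09 at 48 h. Its PBS and 6 h arrays overlapped, and the difference was -0.21 (SE 0.12, interval -0.47 to 0.05). At 48 h it fell by 0.59 (SE 0.12, interval -0.85 to -0.33), with no overlap, and the value without replicate 2 was also -0.59. The methods' t-test did not call this fall. Since 1 probe set was higher and the other lower at 48 h, these arrays give no settled direction for CXCL8.

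CXCL16, the transmembrane chemokine, ran opposite to CXCL1. Probe set 223454_at read 7.08, 7.34 and 7.49 in PBS, 6.78, 6.85 and 6.75 at 6 h, and 7.69, 7.96 and 7.51 at 48 h. All arrays at 6 h were below PBS and all at 48 h above it, although the lowest array at 48 h and the highest PBS array were 7.51 and 7.49. It fell by 0.51 at 6 h (SE 0.12, interval -0.78 to -0.24), a call lost under the methods' t-test, as was that at 48 h. It rose by 0.42 at 48 h (SE 0.12, interval 0.14 to 0.69), a call lost without PBS replicate 1, at 0.31, or without replicate 2 of PGG at 48 h, at 0.30. Between the PGG times the difference was 0.93 (SE 0.12, interval 0.65 to 1.20). ADAM17 and ADAM10, proteases that shed CXCL16, were read in the same 2 comparisons. ADAM17 read 7.93, 7.71 and 7.58 in PBS, 7.07, 7.06 and 7.17 at 6 h and 8.33, 8.40 and 8.27 at 48 h. It fell by 0.64 and then stood 0.59 above PBS (adjusted p = 9.8e-05 and 8.6e-05 from limma), and ADAM10 differed by -0.14 and 0.25 (adjusted p = 0.094 and 0.0041 from limma).

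CCL20 was bright on every array. Probe set 205476_at read 12.44, 12.41 and 12.45 in PBS, 12.45, 12.40 and 12.40 at 6 h, and 12.64, 12.69 and 12.54 at 48 h. PBS and 6 h overlapped, with a difference of -0.02 (interval -0.16 to 0.12), and all 3 arrays at 48 h were higher. The difference at 48 h was 0.19 (SE 0.06, interval 0.05 to 0.33) and was called higher, but the call was lost in 5 of the 9 fits that left out 1 array. The call was also lost in separate fits, with the replicate number as a block, under the methods' t-test and with array weights. Without replicate 2 the difference was 0.16. The receptor of CCL20, CCR6, read 6.37, 6.73 and 6.64 in PBS, 6.92, 6.94 and 7.04 at 6 h and 5.41, 5.65 and 5.20 at 48 h. CCR6 rose by 0.39 at 6 h and fell by 1.16 at 48 h (adjusted p = 0.021 and 3.1e-06 from limma).

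CCL2 gave a dim signal and no call. Probe set 216598_s_at read 3.07, 3.35 and 3.21 in PBS, 3.31, 3.21 and 3.28 at 6 h, and 3.28, 3.34 and 3.36 at 48 h. The groups overlapped. The difference was 0.06 at 6 h (interval -0.12 to 0.23) and 0.12 at 48 h (interval -0.06 to 0.29), or 0.11 without replicate 2. The deposited values hold no detection calls, so whether CCL2 was above background cannot be told.

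**Figure D2:**
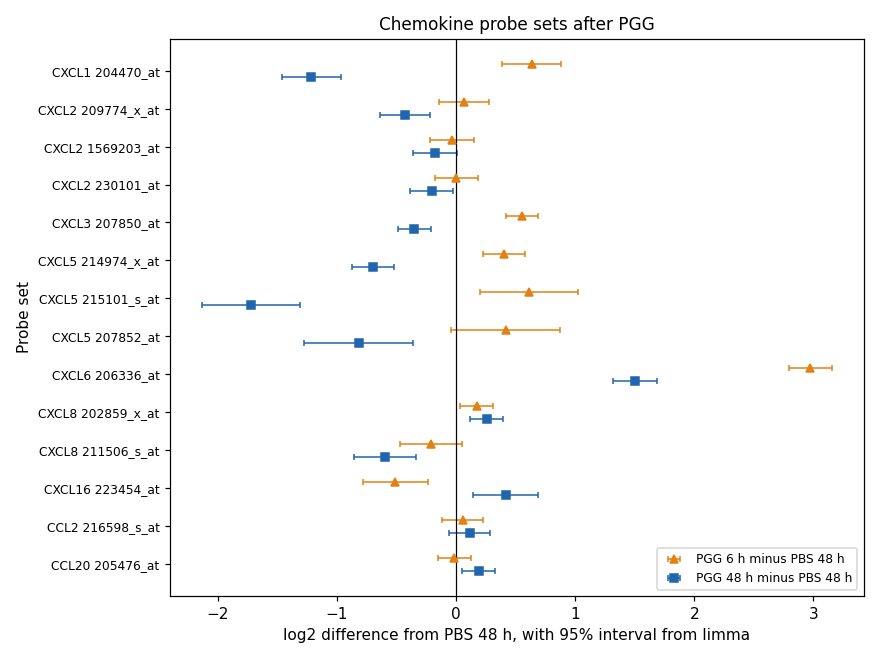
Log2 difference from PBS at 48 h (horizontal axis) of each chemokine probe set (vertical axis), with triangles for PGG at 6 h, squares for PGG at 48 h and bars for the 95% interval from limma over 9 arrays. CXCL6 lay at 2.97 and 1.5, CXCL1 at 0.63 and -1.22, and the intervals of CCL2 covered 0 at both times.

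Taking the probe set with the highest mean of each gene, the 6 cluster genes differed in direction. In gene order from CXCL8 to CXCL2 the log2 differences at 6 h were 0.17 for CXCL8, 2.97 for CXCL6, 0.63 for CXCL1, 0.40 for CXCL5, 0.55 for CXCL3 and 0.07 for CXCL2. At 48 h they were 0.26, 1.5, -1.22, -0.70, -0.35 and -0.43 in the same order. CXCL6 and CXCL1, neighbours but for the platelet chemokine gene PF4V1, thus stood on opposite sides of PBS at 48 h, and so did CXCL6 and CXCL5, the pair with the most similar promoters.

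Among the other genes of the region, AFP was called at 6 h by its brightest probe set and 5 of the 8 measured were called at 48 h. Of all 19775 genes, 34.0% were called at 6 h and 48.2% at 48 h, so nothing is read from these counts. Where 2 differences are given below, the first is PGG at 6 h and the second PGG at 48 h, each from PBS. Between the first and the last of the chemokines lie 9 protein-coding genes, and the 3 that are not among the chemokines above encode platelet chemokines. PF4V1 differed by -0.04 and -0.16 at 6 and 48 h (adjusted p = 0.73 and 0.090 from limma), and PPBP by 0.14 and 0.11 (adjusted p = 0.20 and 0.29 from limma). PF4 was not called at 6 h (0.10, adjusted p = 0.28 from limma) and fell by 0.34 at 48 h (adjusted p = 0.00075 from limma). On the side of CXCL8, AFP, which encodes the fetal liver protein alpha-fetoprotein, rose by 0.19 and fell by 0.25 (adjusted p = 0.030 and 0.0034 from limma). AFM differed by 0.26 and -0.15 (adjusted p = 0.16 and 0.38 from limma), and RASSF6 by 0.00 and 0.22 (adjusted p = 1 and 0.033 from limma, a call lost at 48 h without replicate 2 of PGG at 48 h). On the side of CXCL2, MTHFD2L, a mitochondrial folate enzyme, differed by 0.06 at 6 h (adjusted p = 0.53 from limma) and fell by 1.13 at 48 h (adjusted p = 2.1e-08 from limma). Of its 8 probe sets, 7 were called lower at 48 h and 3 at 6 h. EREG encodes epiregulin, a ligand of the EGF receptor, and its probe sets differed. 1569583_at, of the higher mean, gave -0.07 and -0.20 (adjusted p = 0.48 and 0.024 from limma), and 205767_at gave -3.18 and -3.65 (adjusted p = 3.1e-08 and 1.5e-09 from limma over all probe sets). EPGN had no probe set of its own.

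**Figure D3:**
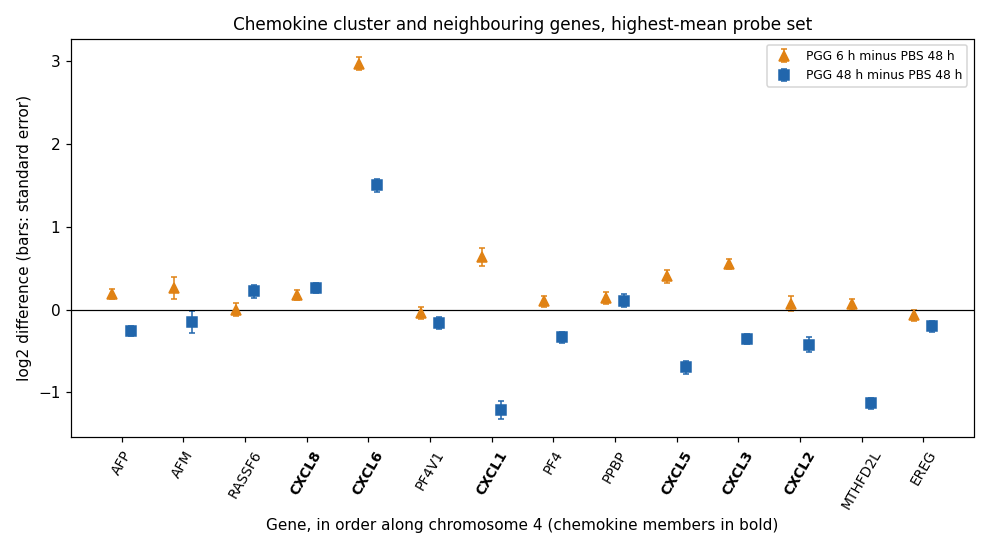
Log2 difference from PBS at 48 h (vertical axis, bars are standard errors from limma over 9 arrays) of the genes in their order along chromosome 4 (horizontal axis, not to scale in distance), each read by its brightest probe set on average. Triangles are PGG at 6 h and squares PGG at 48 h. CXCL6 at 2.97 and 1.5 lay next to PF4V1 at -0.04 and -0.16 and CXCL1 at 0.63 and -1.22.

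Of the other chemokines, those that rose first were CXCL10, an interferon-induced attractant of T cells, CX3CL1 (fractalkine) and CCL4. In the fit of 1 probe set per gene, limma called 34.0% of 19775 genes at 6 h (17.2% higher and 16.9% lower) and 48.2% at 48 h (23.9% higher and 24.3% lower). Between the PGG times it called 47.0% (23.6% higher and 23.4% lower). Of 30 measured other chemokines of 35 listed, 3 were higher and 1 lower at 6 h, and 8 were higher and 2 lower at 48 h, with median log2 differences of 0.005 and 0.01 against 0.0067 and -0.02 over all genes. CXCL10 read 7.17, 7.29 and 7.12 in PBS, 8.81, 8.84 and 8.87 at 6 h and 7.58, 7.72 and 7.62 at 48 h. The groups did not overlap, and like CXCL6 it stood highest at 6 h, with log2 differences of 1.65 (SE 0.07) and 0.45 (SE 0.07, adjusted p = 9.7e-09 and 1.1e-04 from limma). CX3CL1 rose by 1.19 and 0.76 (adjusted p = 8.9e-08 and 9.6e-07 from limma) and CCL4 by 1.01 and 0.71 (adjusted p = 2.9e-06 and 2.2e-05 from limma). XCL1 fell by 0.44 at 6 h (adjusted p = 0.0059 from limma).

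At 48 h the largest rise among the other chemokines was that of CXCL12, a stromal chemokine of stem cell homing, together with its receptors. CXCL12 read 5.24 to 5.38 over the PBS arrays, 5.24 to 5.29 at 6 h and 6.72, 7.08 and 6.60 at 48 h, a rise of 1.5 (SE 0.10, adjusted p = 1.2e-07 from limma). CXCR4, its signalling receptor, read 4.60, 4.91 and 4.95 in PBS and 6.84, 7.04 and 6.55 at 48 h, a rise of 1.99 (SE 0.14, adjusted p = 1.0e-07 from limma). ACKR3, its scavenging receptor, rose by 0.58 at 6 h and by 2.88 at 48 h (adjusted p = 9.2e-05 and 9.0e-11 from limma). In all 3 genes the highest or lowest array at 48 h was replicate 2, and without it the rises were 1.36 for CXCL12, 1.88 for CXCR4 and 2.97 for ACKR3. CXCL13, an attractant of B cells, rose by 1.04 and CCL26, or eotaxin-3, by 1.02 at 48 h (adjusted p = 3.8e-06 and 1.0e-05 from limma), the former from a dim 2.37 to 2.63 in PBS. CCL16, a liver chemokine, fell by 0.30 at 48 h (adjusted p = 0.028 from limma).

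Of 20 measured chemokine receptors of 22 listed, the 3 called at 6 h were higher, and 6 were higher and 1 lower at 48 h. The median log2 differences were 0.04 and 0.08. CXCR1, a receptor of CXCL8 and CXCL6, rose by 0.26 at 6 h (adjusted p = 0.016 from limma) and differed by 0.13 at 48 h (adjusted p = 0.17 from limma). CCR2, the receptor of CCL2, rose by 1.13 at 48 h (adjusted p = 3.7e-07 from limma), from 3.93 to 4.21 in PBS to 5.16 to 5.31. Only 1 of its 2 probe sets was called at 48 h in the fit over all probe sets.

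Genes upstream of the chemokines were also read, from lists of inducing cytokines and their receptors and of NF-kB. Of 23 measured inducers and receptors of 26 listed, 8 were higher and 3 lower at 6 h, and 13 were higher and 3 lower at 48 h, with medians of 0.06 and 0.45. LIF, a cytokine of the IL-6 family, rose by 1.22 and 1.60, MYD88, the adaptor of IL-1 and Toll-like receptors, by 0.71 and 0.52, and IL1RAP, a subunit of the IL-1 receptor, by 0.56 and 1.23. TLR3, the sensor of double-stranded RNA, read 4.15, 4.09 and 4.01 in PBS and 7.69, 7.84 and 7.62 at 48 h, a rise of 3.63 (SE 0.07, adjusted p = 1.7e-11 from limma). The main TNF receptor TNFRSF1A fell at both times, by 0.53 at 6 h (adjusted p = 1.2e-04 from limma) and by 0.93 at 48 h (adjusted p = 3.9e-07 from limma), whereas TNFRSF1B, the other TNF receptor, rose by 2.17 at 48 h (adjusted p = 9.5e-10 from limma). IRAK1, a kinase of IL-1 signalling, fell by 0.38 and by 1.52. IL6R fell by 0.57 at 6 h and rose by 1.58 at 48 h (adjusted p = 1.3e-05 and 7.9e-10 from limma), an order like that of CXCL16. TLR4, the receptor of endotoxin, differed by -0.26 at 48 h (adjusted p = 0.036 from limma), a call lost without replicate 2 of PGG at 48 h, and none of its 4 probe sets was called over all probe sets. Over the lists named here and the markers, 84 of 159 genes were called at 48 h, beside 48.2% of all genes. Leaving out that replicate, 4 of these calls were lost (CCL16, TLR4 and, named after their values were seen, CCR7 and ACKR4). In that fit 6 other genes were called and 0 of the 84 turned in direction.

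Of 15 measured NF-kB subunits and feedback genes of 17 listed, 5 were higher and 2 lower at 6 h, and 8 were higher and 2 lower at 48 h, with medians of 0.14 and 0.27. The feedback inhibitors TNFAIP3 (A20), TNIP1 and NFKBIE rose at both times. TNFAIP3 read 9.11 to 9.12 in PBS, 10.06 to 10.08 at 6 h and 10.47 to 10.60 at 48 h, rises of 0.95 and 1.43 (adjusted p = 1.8e-07 and 1.4e-09 from limma). TNIP1 rose by 1.01 and 1.55, NFKBIE by 0.94 and 1.59 and the subunit REL by 0.50 and 1.73. Of the 2 probe sets of TNIP1, 1 was called higher at each time in the fit over all probe sets. NFKBIA, the inhibitor I-kappa-B alpha, differed by 0.10 at 6 h (adjusted p = 0.34 from limma) and fell by 0.44 at 48 h (adjusted p = 2.1e-04 from limma). The kinase genes CHUK and IKBKB each fell at 6 h, by 0.29 and 0.27. Between the PGG times TNFAIP3 was higher at 48 h by 0.47, TNIP1 by 0.54, NFKBIE by 0.65 and REL by 1.23 (adjusted p of at most 4.0e-05 from limma).

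Of 14 measured other NF-kB induced genes of 18 listed, 7 were higher and 2 lower at 6 h, and 8 were higher and 2 lower at 48 h, with medians of 0.14 and 0.26. LTB (lymphotoxin beta) rose by 1.55 and 1.25 and TNFAIP2 by 1.16 and 0.42. Each has 2 probe sets, of which 1 was called higher at each time in the fit over all probe sets. ICAM1, the adhesion molecule that neutrophils bind, read 10.37, 10.28 and 10.25 in PBS, 11.16, 11.29 and 11.28 at 6 h and 10.55, 10.40 and 10.53 at 48 h, so it was highest at 6 h (0.94 and 0.19, adjusted p = 7.1e-07 and 0.035 from limma). The difference between the PGG times was -0.75 for ICAM1 and -1.2 for CXCL10 (adjusted p = 1.5e-06 and 2.1e-08 from limma). VCAM1 rose by 0.55 and 0.98 and PLAU, the urokinase gene, by 0.32 and 1.40. LCN2, the iron-binding lipocalin, fell by 0.52 and then rose by 0.35, complement C3 fell by 0.29 at each time, and IL32 fell by 0.46 at 48 h.

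**Figure D4:**
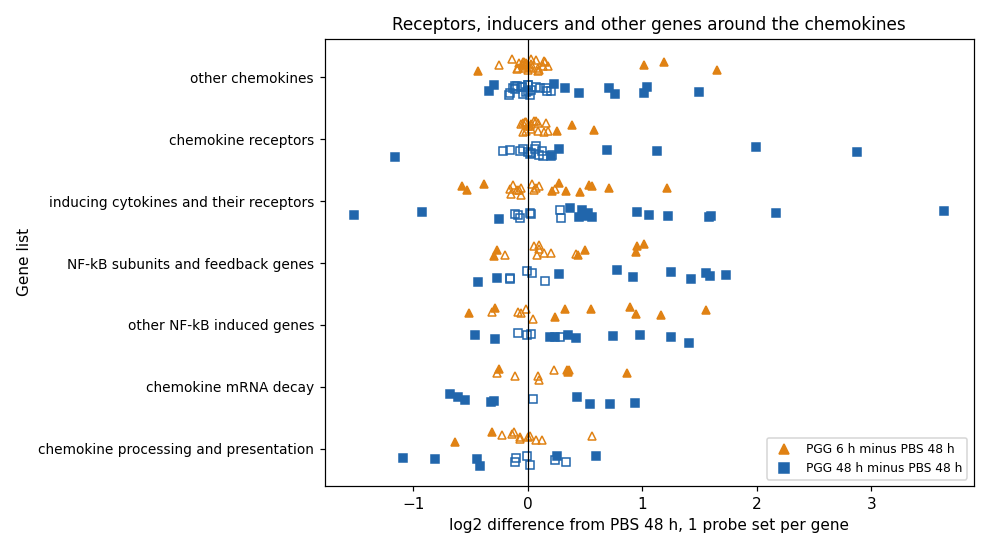
Log2 difference from PBS at 48 h (horizontal axis) of the measured genes of 7 lists (vertical axis), 1 probe set per gene, with triangles for PGG at 6 h and squares for PGG at 48 h. Filled symbols passed an adjusted p under 0.05 from limma over 19775 genes, and small vertical offsets are for legibility. The inducer list reached 3.63 (TLR3) and the receptor list 2.88 (ACKR3), both at 48 h.

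Many chemokine mRNAs carry AU-rich elements and are unstable, so genes of mRNA decay were listed as well. Of 10 measured of 11, 4 were higher and 1 lower at 6 h, and 4 were higher and 5 lower at 48 h, with medians of 0.16 and -0.12. The decay factors ZFP36L1 and ZFP36 (tristetraprolin) rose at both times, by 0.87 and 0.71 and by 0.36 and 0.54. ZFP36L2 differed by -0.27 at 6 h (adjusted p = 0.070 from limma) and fell by 0.68 at 48 h. HNRNPD (AUF1) rose by 0.35 and then fell by 0.29, RC3H2 differed by -0.25 (adjusted p = 0.041 from limma) and then rose by 0.43, and TIAL1 rose by 0.34 and 0.93. TIA1 fell by 0.61 and the stabilizing factor ELAVL1 (HuR) fell by 0.55 at 48 h. For 3 of these genes other probe sets went the other way. TIAL1 had 1 of 4 probe sets higher and 2 lower at each time, TIA1 had 2 of 7 higher and 3 lower at 48 h, and RC3H2 had 3 of 7 higher at 6 h. Of 12 measured genes of chemokine processing and presentation of 12 listed, the 2 called at 6 h were lower, and 2 were higher and 4 lower at 48 h, with medians of -0.07 and -0.06. DPP4, a peptidase that trims chemokines, fell by 0.32 and by 0.42. Proteoglycans bind chemokines, and of the 4 listed 3 fell at 48 h, SDC1 (syndecan-1) by 1.09 and GPC3 (glypican-3) by 0.45, both of the cell surface, and HSPG2 (perlecan), of the basement membrane, by 0.81. The other, SDC4 (syndecan-4), named after its value was seen, differed by 0.33 (adjusted p = 0.26 from limma), and by 0.70 without replicate 2 of PGG at 48 h, when it was called higher.

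The genes whose profile over the 9 arrays was most like that of CXCL6 were looked up among 3425 genes whose group means spanned at least 1 on the log2 scale. They were MT1M (Pearson r = 0.996), ENTPD7 (0.995), PEG10 (0.993), MT1HL1 (0.993) and RWDD2A (0.992), over 9 arrays that form 3 groups, so that r mostly reflects the order of 3 means. MT1M, a metallothionein gene, stood 3.45 and 1.66 above PBS at 6 and 48 h, next to 2.97 and 1.5 for CXCL6. For CXCL8 202859_x_at, among 3426 genes, they were RP2 (0.988), TTC14 (0.963), PLPP5 (0.962), KCTD9 (0.958) and BLZF1 (0.957), with log2 differences of 0.56 to 0.94 at 6 h and 1.04 to 1.88 at 48 h. The differences of this CXCL8 probe set were 0.17 and 0.26. The likeness follows 202859_x_at alone, and since 211506_s_at went the other way it is not that of a settled CXCL8 profile.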

How the data were processed

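The series holds 9 Affymetrix arrays of Huh7 RNA, 3 per group, grouped by the sample titles. The authors used Expression Console (Affymetrix) with RMA, which corrects background, equalizes the distributions of the arrays and summarizes probes, and they deposited log2 values per probe set. The software version was not stated. RMA tends to compress the differences of dim probe sets, and no detection calls came with the values. Arrays have no read depth, so their number limits the precision. The label replicates are called biological, and p-values measure the spread between them.

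Of 54675 probe sets, 62 controls were left out and 54613 tested. The platform annotation gave 1 symbol for 41091, several for 1801 and none for 11721, and 0 probe sets held one of the 9 chemokines among several symbols. All 9 symbols have an entry in RefSeq on GRCh38.p14. Every value column of the table was mapped to a sample. From the deposited log2 values, limma 3.58.1 in R 4.3.3 (lmFit with 1 mean per group over 9 arrays, then eBayes) gave differences, standard errors, 95% intervals and Benjamini-Hochberg adjusted p, over all probe sets for the chemokines and over 19775 genes, each read by its brightest probe set on average, for other genes. The steps were tested on simulated data.

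The chemokines, gene lists and tests were chosen with earlier results of these data known. The names printed are the 9 chemokines with every probe set, up to 3 genes called higher and 3 called lower per list and comparison with PBS with the largest differences, the 5 genes most correlated with CXCL6 and with CXCL8, and the protein-coding genes between or within 3 genes of the chromosome 4 chemokines. PTPRC, named as the defining leukocyte marker, and LYZ, named after its value was seen, fall outside this rule. Promoters came from RefSeq (GRCh38.p14), and their identity is the share of identical columns in a global alignment, gaps counted (Biopython 1.88). Alternatives were quantile normalization, a filter on means under 5, a mean-variance trend, the methods' t-test, the study's cut-offs, the mean over probe sets, a replicate block, leaving out each array and, chosen after seeing the data, array weights, the fit without replicate 2 of PGG at 48 h for other genes, and the study's cut-offs with each array left out. The RT-PCR, protein and animal experiments were not analysed here.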

Additional observations from a re-analysis of the deposited data

Results flagged for a closer look

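For 6 chemokine probe sets all 3 arrays of PGG at 6 h lay on one side of the 3 PBS arrays. All 3 arrays of PGG at 48 h lay on the other. Such crossings were not counted over all probe sets, so nothing is read from their number. In the single comparisons 37.5% of all probe sets did not overlap PBS at 6 h and 44.5% did not at 48 h. The difference between the effects was not tested, since the chemokines were chosen with these results known, and both effects share the PBS arrays. As log2 differences of PGG at 48 h minus PGG at 6 h, which do not use the PBS arrays, these were -1.85 for CXCL1, -0.90 for CXCL3, -1.10, -2.34 and -1.23 for the CXCL5 probe sets 214974_x_at, 215101_s_at and 207852_at, and 0.93 for CXCL16. CXCL16 was the 1 probe set of the 6 that was below PBS first and above it later.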

How the results depend on the processing

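The table holds no detection calls, so dim signals such as those of CCL2 and 2 CXCL2 probe sets cannot be set against background. With 3 arrays per group, differences near 0.2, such as those of CCL20, passed or missed the call with the setting. Leaving out 1 array, the number of chemokine probe sets called ranged from 5 to 7 at 6 h, 9 to 11 at 48 h and 8 to 10 between the PGG times. Over all probe sets it ranged from 10854 to 14720, 19628 to 21050 and 17501 to 20502, and for the other list genes from 35 to 46, 64 to 70 and 52 to 60. The methods' t-test at an adjusted p under 0.05 called 4 chemokine probe sets at 6 h in place of 6 and 6 at 48 h in place of 11. The study's cut-offs, with the adjusted p from limma, called 401 probe sets at 6 h, 2250 at 48 h and 1656 between the PGG times. They called 1, 2 and 2 chemokine probe sets. With the mean over all probe sets of a gene CXCL8 turned to -0.0183 at 6 h and -0.168 at 48 h, because its probe sets differ in direction. With array weights the calls of CXCL16 and CCL20 at 48 h were lost. Same-numbered arrays had correlations of deviations from -0.089 to 0.162, and differently numbered arrays from -0.178 to 0.107. The ranges overlapped, and with 3 arrays per group these correlations cannot settle whether the numbers pair the arrays. With the replicate number as a block, 13239, 21284 and 19842 probe sets were called in the 3 comparisons, 6, 10 and 10 chemokine probe sets, and 40, 65 and 58 other list genes. Under median centring, quantile normalization and array weights, 78 of 81 log2 differences of chemokines moved by less than the spread between replicates and 3 by more.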

Other observations

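The marker counts below stand beside 34.0% of all genes called at 6 h and 48.2% at 48 h. Of 9 measured hepatoma markers, the 5 called at 6 h were higher, and 4 were higher and 4 lower at 48 h. TTR (transthyretin) rose by 1.54 and 1.00 on the log2 scale and APOA1 by 0.55 and 0.68, whereas APOB, the protein of low-density lipoprotein, fell by 1.99 at 48 h (adjusted p = 4.1e-10 from limma). Of 12 measured leukocyte markers, 1 was higher and 1 lower at 6 h, and the 3 called at 48 h were lower. S100A9, a calcium-binding protein that epithelial cells also make, rose by 0.86 and then fell by 1.92 (adjusted p = 4.2e-06 and 1.4e-09 from limma), and CD14, which hepatocytes make as well, fell by 0.81 and by 1.37. Of 6 endothelial markers, 1 was higher at each time by its brightest probe set, TEK at 6 h (0.25) and PECAM1 at 48 h (0.46). In the fit over all probe sets, 0 of the 2 probe sets of TEK were called at 6 h. Of the 5 probe sets of PECAM1, 3 were higher at 6 h, and 1 was higher and 2 lower at 48 h. Of 8 stromal markers, 1 was higher and 1 lower at 6 h, and 2 were higher and 2 lower at 48 h. LUM, the matrix proteoglycan lumican, rose by 3.27 at 48 h (adjusted p = 6.3e-10 from limma). Only 1 of its 2 probe sets was called at 48 h in the fit over all probe sets.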
